A study of Mus musculus with 16 samples.

Results

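The 33 genes described here are activity-dependent immediate early genes, whose transcription in neurons is switched on by synaptic input without new protein synthesis or shortly after it. They were chosen by name and matched to the Ensembl gene IDs of the deposited count table, and all 33 were found among its 55573 IDs. Transcripts were counted by RNA sequencing in cerebral cortex of mice aged about 180 days after birth, in 4 groups of 4 libraries. Aifm1-KI mice carry a knock-in allele, R200 del, of Aifm1, the gene of the mitochondrial flavoprotein AIF, and were set against littermate wild types, called Aifm1-WT. Hq-mut mice carry the Harlequin allele of the same gene on the stock B6CBACa Aw-J/A-Aifm1Hq/J, and were set against littermate wild types of that stock, called Hq-WT. The strain field gives C57BL/6 for every sample, no mouse was treated, and the 4 libraries of a group are numbered 1 to 4. The alleles are not restricted to 1 cell type, and neither the sex of the mice nor the hour of tissue harvest is given in the sources used.

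Calcium entering through receptors and channels activates kinases that phosphorylate transcription factors already bound to the promoters of these genes, chiefly CREB at cyclic-AMP response elements and SRF with its partners at CArG boxes. The first genes to respond encode mostly transcription factors of the FOS, JUN, EGR and NR4A families and the synaptic regulator Arc. Genes that follow encode secreted and synaptic proteins such as Bdnf and the short form of Homer1, and many members encode phosphatases or inhibitors that end the response. For this account 15 members were placed among rapid responders (Fos, Fosb, Jun, Junb, Egr1 to Egr4, Arc, Npas4, Nr4a1, Btg2, Dusp1, Ier2 and Klf4). A further 10 were placed among delayed responders (Fosl2, Bdnf, Nptx2, Inhba, Homer1, Nr4a2, Nr4a3, Ptgs2, Dusp5 and Nfil3), and 8 in neither class (Dusp6, Ier3, Ier5, Per1, Sik1, Gadd45b, Gadd45g and Rgs2). The classes rest on textbook knowledge and were assigned with earlier results of these data known, so contrasts between them are descriptions only.

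Promoters of 6 members are shown because these genes differ in class and in how they varied between libraries below. They come from RefSeq on GRCm38.p6, run 5′ to 3′ on the strand of the gene from 250 bases before its start to 50 after it, and capitals mark each TGACG, the half-site of the cyclic-AMP response element, or its reverse complement CGTCA. The first 3 belong to rapid responders and the last 3 to delayed ones.
Fos: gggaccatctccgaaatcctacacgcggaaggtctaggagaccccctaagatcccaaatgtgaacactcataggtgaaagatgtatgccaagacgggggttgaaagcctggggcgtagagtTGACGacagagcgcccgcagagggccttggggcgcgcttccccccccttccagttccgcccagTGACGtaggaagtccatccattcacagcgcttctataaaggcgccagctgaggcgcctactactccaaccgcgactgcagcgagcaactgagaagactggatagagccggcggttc
Dusp1: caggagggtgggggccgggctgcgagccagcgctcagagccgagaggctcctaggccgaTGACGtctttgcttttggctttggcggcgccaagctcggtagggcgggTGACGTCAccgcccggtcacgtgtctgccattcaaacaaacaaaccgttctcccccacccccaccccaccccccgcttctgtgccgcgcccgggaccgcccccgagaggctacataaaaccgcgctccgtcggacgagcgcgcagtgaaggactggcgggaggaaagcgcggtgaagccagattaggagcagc
Nr4a1: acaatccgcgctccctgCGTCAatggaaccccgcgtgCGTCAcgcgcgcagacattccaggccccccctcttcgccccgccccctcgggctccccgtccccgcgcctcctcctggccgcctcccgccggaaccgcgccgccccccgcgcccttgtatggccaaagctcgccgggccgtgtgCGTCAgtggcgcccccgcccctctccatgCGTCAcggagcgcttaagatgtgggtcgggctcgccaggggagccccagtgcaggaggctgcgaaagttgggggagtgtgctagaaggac
Dusp5: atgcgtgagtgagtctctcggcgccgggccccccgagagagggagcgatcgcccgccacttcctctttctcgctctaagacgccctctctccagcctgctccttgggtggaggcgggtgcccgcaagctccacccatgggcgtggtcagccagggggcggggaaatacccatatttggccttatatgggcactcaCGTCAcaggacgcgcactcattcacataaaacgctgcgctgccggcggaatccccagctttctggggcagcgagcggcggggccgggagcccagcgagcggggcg
Nr4a2: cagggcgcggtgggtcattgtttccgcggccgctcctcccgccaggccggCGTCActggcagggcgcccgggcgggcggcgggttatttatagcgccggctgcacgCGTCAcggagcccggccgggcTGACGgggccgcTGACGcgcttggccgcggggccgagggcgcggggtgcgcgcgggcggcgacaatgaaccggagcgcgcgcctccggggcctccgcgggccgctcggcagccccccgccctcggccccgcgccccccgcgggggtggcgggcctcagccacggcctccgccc
Bdnf: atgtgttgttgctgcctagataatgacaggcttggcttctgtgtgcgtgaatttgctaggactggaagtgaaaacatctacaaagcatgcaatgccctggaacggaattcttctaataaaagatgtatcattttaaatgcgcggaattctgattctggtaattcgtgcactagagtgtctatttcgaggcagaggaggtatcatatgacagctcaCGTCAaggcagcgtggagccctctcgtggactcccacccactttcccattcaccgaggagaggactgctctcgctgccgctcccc
The Fos window, of a founding member of the AP-1 family, lies at chr12:85473640-85473939 (plus strand) and holds 2 half-sites. That of Dusp1, a nuclear phosphatase of MAP kinases, lies at chr17:26508423-26508722 (minus strand) and holds 3 half-sites, of which 2 overlap in a full element TGACGTCA. That of Nr4a1, an orphan nuclear receptor, lies at chr15:101266596-101266895 (plus strand) and holds 4. Among the delayed responders, Dusp5, an ERK phosphatase, has its window at chr19:53528895-53529194 (plus strand) with 1 half-site, and Nr4a2, a nuclear receptor related to Nr4a1, at chr2:57123954-57124253 (minus strand) with 4. The Bdnf window, 1 of 7 listed for this neurotrophin gene, lies at chr2:109692186-109692485 (plus strand) and holds 1.

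The table lists 39 promoters for 27 of the 33 members, and Egr1, Egr3, Arc, Ier2, Nptx2 and Sik1 are named only. A half-site on either strand stood in 22 of the 39 promoters (56.4%) and in 20.8% of all 32851 promoters in the table. It stood in 12 of 15 promoters of rapid responders (80.0%), 7 of 16 of delayed responders (43.8%) and 3 of 8 of the others (37.5%). The full element TGACGTCA, which contains the half-site on both strands, stood in 5.13% of the members' promoters (Btg2 and Dusp1) and in 1.79% of all. A CArG box stood in 12.8% of the members' promoters (Egr2 and Dusp5) and in 1.63% of all, and the TATA box motif TATAAA in 15.4% and 13.6%. By gene, 19 of the 27 members held a half-site in at least 1 promoter, 10 of 11 among the rapid responders, 7 of 9 among the delayed responders and 2 of 7 among the others, against 23.0% of all genes in the table. Promoters of 1 gene are not independent: the 7 of Bdnf include 1 with a half-site, and those of Egr2 overlap in part. These matches describe letters in a window and show no binding.

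The shallowest library was Hq-WT 3, with a total of 10671580 counts, and the deepest was Aifm1-KI 2, with 32551594. Levels are given as CPM, counts relative to TMM-scaled library sizes, TMM being a scaling by a trimmed mean of ratios between libraries. The targeted gene Aifm1 was at 3.29 ± 0.815 CPM in Hq-mut and 24.0 ± 0.935 CPM in Hq-WT (SD, n = 4 each). It was at 23.9 ± 1.90 CPM in Aifm1-KI and 22.7 ± 0.728 CPM in Aifm1-WT (SD, n = 4 each), where the allele cannot be read from gene counts. Since the labels leave unsaid whether each library stands for its own mouse, p-values here rest only on variation among libraries. The 10 excitatory neuron markers, among them the glutamate transporter Slc17a7, summed to 1680 to 2990 CPM across the 16 libraries. Markers of striatum and choroid plexus were present as well, at sums of up to 846 CPM (Hq-mut 3) and 5420 CPM (Hq-WT 2).

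All 33 members passed the filter on low counts in every comparison, and the lowest count of any member in any library was 53, for Ier3. Per kilobase of annotated exon, Arc, which controls AMPA receptor removal from synapses, had the highest mean level over the 16 libraries, 147 CPM per kb. The zinc finger factors Egr1 (94.8 CPM per kb) and Egr3 (83.1 CPM per kb) followed, then the postsynaptic scaffold gene Homer1 (50.3 CPM per kb). Fos was at 21.8 CPM per kb, Bdnf at 9 CPM per kb and the neuron-restricted factor Npas4 at 8.68 CPM per kb. Klf4, a zinc finger factor best known from pluripotent and vascular cells, was lowest at 2.62 CPM per kb. Counts per gene join all isoforms, so the activity-induced short form of Homer1 and the promoter-specific transcripts of Bdnf were not told apart.

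**Figure D1:**
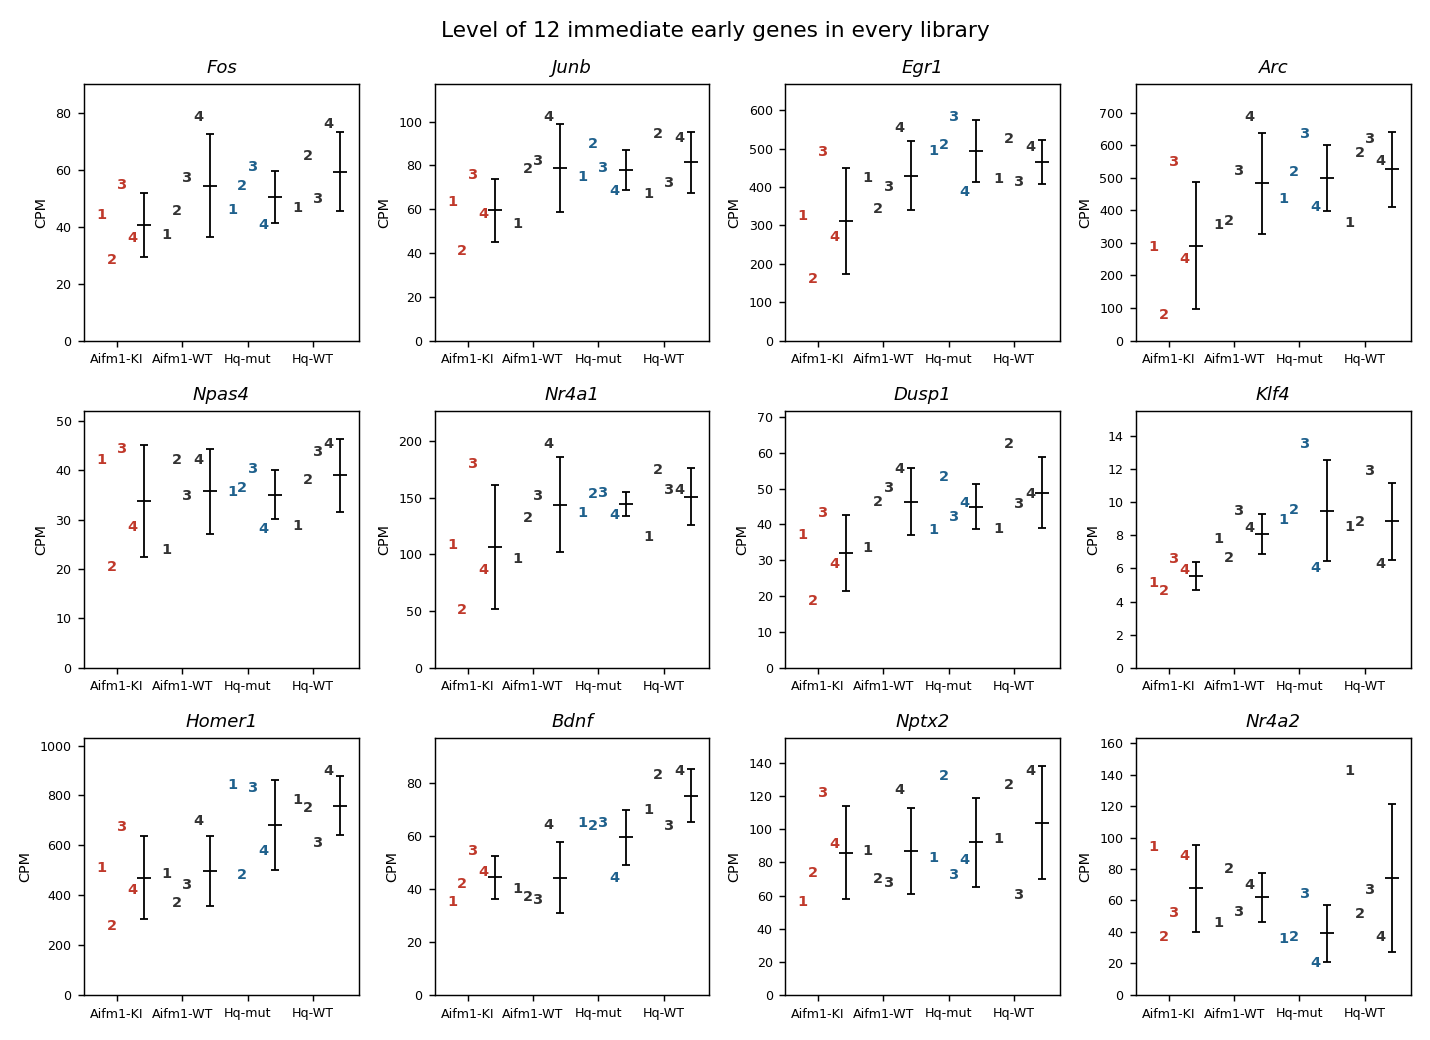
Level of 12 immediate early genes in CPM (vertical axes, from 0) by group; each digit is the library with that number, and the bar gives the mean with its SD (n = 4). Aifm1-KI 2 is the lowest library of its group for Fos, Junb, Egr1, Arc, Npas4, Nr4a1, Dusp1, Klf4, Homer1 and Nr4a2, and Aifm1-WT 4 reaches 687 CPM for Arc.

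Setting Aifm1-KI against Aifm1-WT tests for an effect of the R200 del allele on these genes. No immediate early gene was called (0 of 33; 0.0% of 18383 genes tested were called by edgeR's quasi-likelihood test at an adjusted p under 0.05). The log2 fold change was below 0 for 28 of the 33, beside 48.4% of all genes tested, with a median of -0.25 over the 33 and 0.0055 over all genes. Of the rapid responders 14 of 15 lay below 0 (median -0.43), of the delayed responders 8 of 10 (median -0.10) and of the others 6 of 8 (median -0.25). At an unadjusted p under 0.05 there were 5 lower members (4.34% of all genes were lower at that level) and 1 higher (7.05% of all genes), and 2094 genes in all passed it. DESeq2 called 159 of 22526 genes but 0 members, with 6 members lower (906 genes) and 1 higher (1300 genes) at an unadjusted p under 0.05.

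Among the rapid transcription factors, Fos was at 43.9, 28.2, 54.5 and 36.1 CPM in Aifm1-KI 1 to 4, against 36.9, 45.3, 56.9 and 78.4 CPM in Aifm1-WT 1 to 4, a log2 fold change of -0.43 (SE 0.25). Fosb was at 38.8, 23.9, 49.8 and 38.7 CPM in Aifm1-KI 1 to 4, against 34.6, 37.2, 35.1 and 71.8 CPM in Aifm1-WT 1 to 4, a log2 fold change of -0.25 (SE 0.28). In both genes the groups overlapped, with Aifm1-KI 2 lowest and Aifm1-WT 4 highest of the 8 libraries. Junb, another subunit of AP-1, was at 63.1, 41.1, 75.7 and 58.0 CPM in Aifm1-KI 1 to 4, against 53.4, 78.1, 81.8 and 102 CPM in Aifm1-WT 1 to 4, a log2 fold change of -0.41 (SE 0.21). Egr1 was at 325, 160, 491 and 269 CPM in Aifm1-KI 1 to 4, against 424, 343, 399 and 553 CPM in Aifm1-WT 1 to 4, a log2 fold change of -0.47 (SE 0.29). The groups overlapped for both, and Aifm1-KI 2 was the lowest library of each. Egr2, a paralog needed for myelination and also induced in neurons, was at 11, 8.81, 21.9 and 12.2 CPM in Aifm1-KI 1 to 4, against 11, 13.4, 20.4 and 32.4 CPM in Aifm1-WT 1 to 4, a log2 fold change of -0.55 (SE 0.37). Egr4 was at 32.7, 25.7, 44.7 and 40.3 CPM in Aifm1-KI 1 to 4, against 36.5, 33.3, 35.6 and 58.8 CPM in Aifm1-WT 1 to 4, a log2 fold change of -0.20 (SE 0.21). Egr4 had its 3 lower wild types within 33.3 to 36.5 CPM and Aifm1-WT 4 well above them. Npas4 was at 42.1, 20.4, 44.4 and 28.5 CPM in Aifm1-KI 1 to 4, against 23.9, 42.1, 34.8 and 42.2 CPM in Aifm1-WT 1 to 4, a log2 fold change of -0.09 (SE 0.26). Aifm1-KI 1 and 3 were level with the highest wild types, so that the groups overlapped. Nr4a1 was at 108, 51.0, 180 and 86.5 CPM in Aifm1-KI 1 to 4, against 95.6, 132, 151 and 197 CPM in Aifm1-WT 1 to 4, a log2 fold change of -0.45 (SE 0.34). Aifm1-KI 3 lay above 3 of the 4 wild types, and Aifm1-KI 2 and 4 lay below all of them.

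Klf4 (ENSMUSG00000003032, GRCm38 chr4:55527143-55532466, minus strand, protein-coding) had the smallest p of the 33 in this line. It was at 5.13, 4.64, 6.55 and 5.91 CPM in Aifm1-KI 1 to 4, against 7.78, 6.63, 9.47 and 8.46 CPM in Aifm1-WT 1 to 4. Its log2 fold change was -0.55 (SE 0.15, adjusted p = 0.368 by edgeR), and DESeq2 gave an adjusted p of 0.0848. All 4 mutant libraries lay below all 4 wild types, which held for no other member and for 2.34% of all genes tested in the downward direction, and no member was higher without overlap (2.62% of all genes). Without Aifm1-KI 2 and 4 the log2 fold change of Klf4 was -0.49 (SE 0.17). Of the 10 endothelial markers 8 had a log2 fold change below 0 (median -0.24, 4 of them lower at an unadjusted p under 0.05). So did 8 of 8 pericyte and smooth muscle markers (median -0.29, 0 at that level). This sign was not particular to vascular markers. All 10 excitatory neuron (median -0.27), 10 oligodendrocyte (median -0.41) and 10 microglia markers (median -0.07) lay below 0 too, while all 10 striatal markers lay above it. Endothelial markers summed to 165 to 197 CPM in Aifm1-KI against 180 to 249 CPM in Aifm1-WT, and those of pericytes and smooth muscle to 178 to 196 CPM in Aifm1-KI against 177 to 235 CPM in Aifm1-WT. None of these markers was called by edgeR, and their part in the Klf4 value was not tested.

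Arc was at 289, 78.4, 550 and 250 CPM in Aifm1-KI 1 to 4, against 354, 369, 522 and 687 CPM in Aifm1-WT 1 to 4, a log2 fold change of -0.73 (SE 0.47). Aifm1-KI 2 had far less Arc than any other library, and Aifm1-KI 3 lay above 3 of the 4 wild types. Dusp1, which inactivates MAP kinases in the nucleus, was at 37.1, 18.7, 43.1 and 29.0 CPM in Aifm1-KI 1 to 4, against 33.5, 46.4, 50.1 and 55.5 CPM in Aifm1-WT 1 to 4. Its log2 fold change was -0.55 (SE 0.24, adjusted p = 0.430 by edgeR), with Aifm1-KI 2 and 4 below every wild type and Aifm1-KI 1 and 3 above Aifm1-WT 1. Ier2, a nuclear protein of the early response, was at 8.56, 2.76, 11.3 and 5.65 CPM in Aifm1-KI 1 to 4, against 9.35, 11.6, 13.8 and 14.8 CPM in Aifm1-WT 1 to 4. Its log2 fold change was -0.86 (SE 0.35, adjusted p = 0.424 by edgeR), with Aifm1-KI 3 inside the range of the wild types. Ier3, an early response gene with a part in cell survival, and Gadd45b, a stress sensor also tied to DNA demethylation in neurons, came next. Ier3 was at 6.04, 4.29, 4.51 and 8.01 CPM in Aifm1-KI 1 to 4, against 6.82, 8.33, 8.14 and 8.95 CPM in Aifm1-WT 1 to 4, with a log2 fold change of -0.49 (SE 0.20, adjusted p = 0.420 by edgeR). Gadd45b was at 14, 11.6, 18.4 and 14.2 CPM in Aifm1-KI 1 to 4, against 17.7, 17.9, 16.8 and 22.4 CPM in Aifm1-WT 1 to 4, with a log2 fold change of -0.38 (SE 0.14, adjusted p = 0.401 by edgeR). For each of these genes 1 mutant library overlapped the wild types, Aifm1-KI 4 for Ier3 and Aifm1-KI 3 for Gadd45b.

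Rgs2, which shortens signalling by Gq-coupled receptors, was the only member higher at an unadjusted p under 0.05. It was at 56.0, 66.2, 61.2 and 59.3 CPM in Aifm1-KI 1 to 4, against 54.2, 49.8, 51.1 and 59.3 CPM in Aifm1-WT 1 to 4, a log2 fold change of 0.18 (SE 0.07, adjusted p = 0.418 by edgeR), and the groups overlapped. The 4 delayed responders given by library had log2 fold changes near 0. Homer1 was at 508, 278, 674 and 419 CPM in Aifm1-KI 1 to 4, against 485, 368, 440 and 696 CPM in Aifm1-WT 1 to 4, a log2 fold change of -0.08 (SE 0.26). Bdnf was at 35.2, 41.8, 54.4 and 46.3 CPM in Aifm1-KI 1 to 4, against 40.0, 37.0, 35.8 and 64.3 CPM in Aifm1-WT 1 to 4, a log2 fold change of 0.0015 (SE 0.20). Both genes had their highest wild type in Aifm1-WT 4. Nptx2, a pentraxin that clusters AMPA receptors, was at 56.1, 73.6, 122 and 91.4 CPM in Aifm1-KI 1 to 4, against 87.0, 69.8, 67.5 and 124 CPM in Aifm1-WT 1 to 4, a log2 fold change of -0.03 (SE 0.25). Nr4a2 was at 93.8, 36.9, 52.0 and 88.3 CPM in Aifm1-KI 1 to 4, against 45.5, 80.2, 52.5 and 69.6 CPM in Aifm1-WT 1 to 4, a log2 fold change of 0.13 (SE 0.29). Nr4a2 had 2 mutant libraries above every wild type and 1 below every wild type.

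The other 14 members had group means from 11.1 CPM (Gadd45g) to 283 CPM (Egr3) in Aifm1-KI and from 10.8 to 356 CPM in Aifm1-WT for the same genes. Jun, the partner of FOS in AP-1, was the only rapid responder above 0 and averaged 57.4 ± 12.4 CPM in Aifm1-KI and 49.9 ± 2.83 CPM in Aifm1-WT (SD, n = 4 each). Dusp5 averaged 15.8 ± 8.65 CPM in Aifm1-KI and 23.0 ± 7.07 CPM in Aifm1-WT (SD, n = 4 each), with the smallest p of the delayed responders (adjusted p = 0.526 by edgeR). Ier5 averaged 96.5 ± 55.6 CPM in Aifm1-KI and 161 ± 15 CPM in Aifm1-WT (SD, n = 4 each), and Aifm1-KI 2 was at 34.1 CPM.

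**Figure D2:**
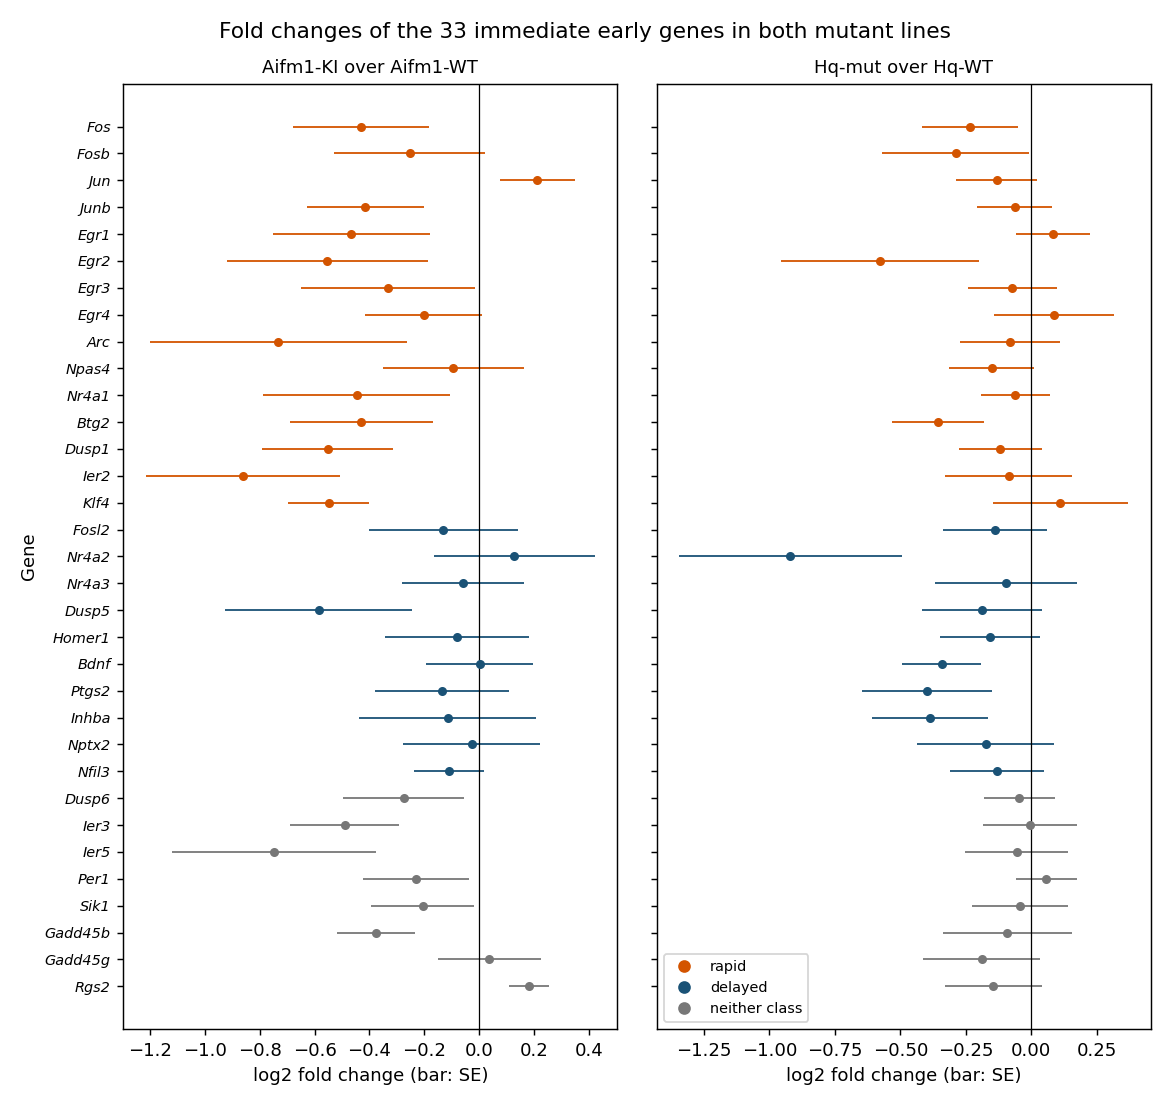
Log2 fold change of each of the 33 genes (horizontal axes, with bars of 1 SE) in Aifm1-KI over Aifm1-WT (left) and Hq-mut over Hq-WT (right); colours give the class. In Aifm1-KI 28 of 33 points lie below 0 and in Hq-mut 29 of 33, but no gene was called in either line.

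In the Aifm1 line most of the members ranked the same libraries highest or lowest within a group. Aifm1-KI 2 was the lowest of its group for 25 of the 33 members and Aifm1-KI 3 the highest for 27, where over all genes tested these shares were 29.5% and 29.9%. They were also the deepest and the shallowest of the group, at totals of 18402715, 32551594, 11671853 and 22293956 counts in Aifm1-KI 1 to 4. Among the wild types, Aifm1-WT 4 was highest for 29 of 33, against 25.3% of all genes. Its total of 22229671 counts lay between those of Aifm1-WT 3 (17548083) and Aifm1-WT 2 (23822606). The effect of depth was not tested. In the Hq line, Hq-mut 4 was lowest for 24 of 33 (23.9% of all genes) and Hq-mut 3 highest for 18 (20.8%), while in Hq-WT the highest library was split over Hq-WT 1 to 4 as 3, 12, 5 and 13 members. Set against the mean log2 CPM of Aifm1-WT, rapid responders deviated by a median of -0.30, -0.90, 0.16 and -0.53 in Aifm1-KI 1 to 4, against -0.40, -0.19, 0.12 and 0.41 in Aifm1-WT 1 to 4. Delayed responders deviated by -0.22, -0.53, 0.34 and 0.01 in Aifm1-KI 1 to 4, against -0.13, -0.30, -0.12 and 0.58 in Aifm1-WT 1 to 4. The median over all genes was between -0.004 and 0.016 in these 8 libraries. Rapid responders were below delayed ones in each Aifm1-KI library, with a difference of -0.54 to -0.08, and in 2 of the 4 Aifm1-WT libraries. Since the reference is the mean of Aifm1-WT itself, wild-type deviations lie around 0 by construction and all Aifm1-KI libraries share that reference. These counts therefore largely restate the fold changes.

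**Figure D3:**
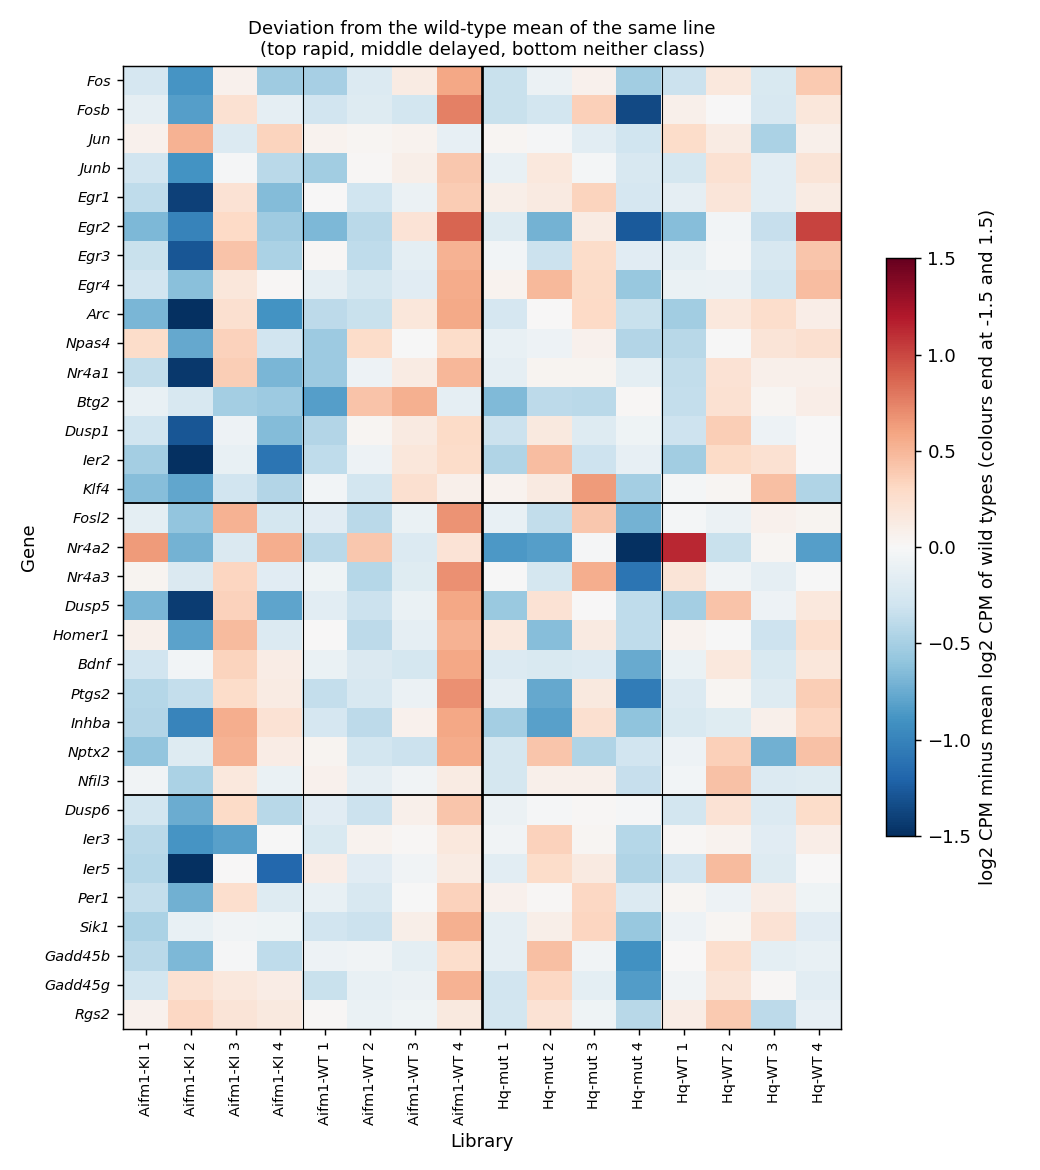
Log2 CPM of the 33 genes (rows) in the 16 libraries (columns) minus the mean of the wild types of the same line; blue is lower, red is higher, and horizontal lines part rapid, delayed and other genes. Columns carry the pattern: Aifm1-KI 2 and Hq-mut 4 are blue for 30 and 32 of 33 genes and Aifm1-WT 4 is red for 31 of 33.

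Markers of other tissue parts differed between these libraries too, beside the vascular markers given with Klf4. The 10 striatal markers, such as the dopamine receptor Drd2, summed to 262 to 632 CPM in Aifm1-KI against 224 to 266 CPM in Aifm1-WT, with 632 CPM in Aifm1-KI 2, 580 CPM in Aifm1-KI 4 and 336 and 262 CPM in Aifm1-KI 1 and 3, and all 10 had a log2 fold change above 0. The 8 choroid plexus markers summed to 31.9 to 2850 CPM in Aifm1-KI against 34.5 to 369 CPM in Aifm1-WT, with the highest values in Aifm1-KI 2 and Aifm1-WT 4. The 10 excitatory neuron markers summed to 1680 to 2480 CPM in Aifm1-KI against 2370 to 2610 CPM in Aifm1-WT, lowest in Aifm1-KI 2, and all 10 had a log2 fold change below 0. The 10 oligodendrocyte markers summed to 2020 to 4560 CPM in Aifm1-KI against 3790 to 5130 CPM in Aifm1-WT, and all 10 had a log2 fold change below 0. The 8 hippocampus markers summed to 308, 517, 270 and 446 CPM in Aifm1-KI 1 to 4 against 282 to 331 CPM in Aifm1-WT, with 5 of 6 tested above 0. The 10 inhibitory neuron markers summed to 760 to 1080 CPM in Aifm1-KI, highest in Aifm1-KI 2, against 789 to 868 CPM in Aifm1-WT, with 8 of 10 above 0. No gene of these lists was at 0 in all 16 libraries, and the part of these cells in the immediate early gene values was not tested. In whole tissue, fewer cells of a type and less RNA per cell cannot be told apart.

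The size of the difference depended on single libraries. Without Aifm1-KI 2 and 4, 23 of 33 members were below 0 (50.3% of all genes), the median was -0.08 over the 33 and -0.16 over the rapid responders, and that of the delayed responders was 0.05 with 3 of 10 below 0. Without Aifm1-KI 2 alone, 23 of 33 were below 0 (49.3% of all genes) with a median of -0.12. Without Aifm1-WT 4, 19 of 33 were below 0, beside 9172 of 18690 genes. The median was then -0.10 over the 33, -0.26 over the rapid and 0.15 over the delayed responders. At an unadjusted p under 0.05 there were then 2 lower members without Aifm1-KI 2, beside 603 of 18611 genes, and 1 without Aifm1-WT 4, beside 713 of 18690 genes. Without Aifm1-KI 3 the median was -0.42, and 15 members were lower at an unadjusted p under 0.05 beside 1842 of 18871 genes, none of them among the 46 genes called. Leaving out 1 library at a time moved the log2 fold change of Arc between -1.24 and -0.421, that of Egr1 between -0.779 and -0.255, that of Egr2 between -0.868 and -0.177 and that of Nr4a1 between -0.827 and -0.219.

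**Figure D4:**
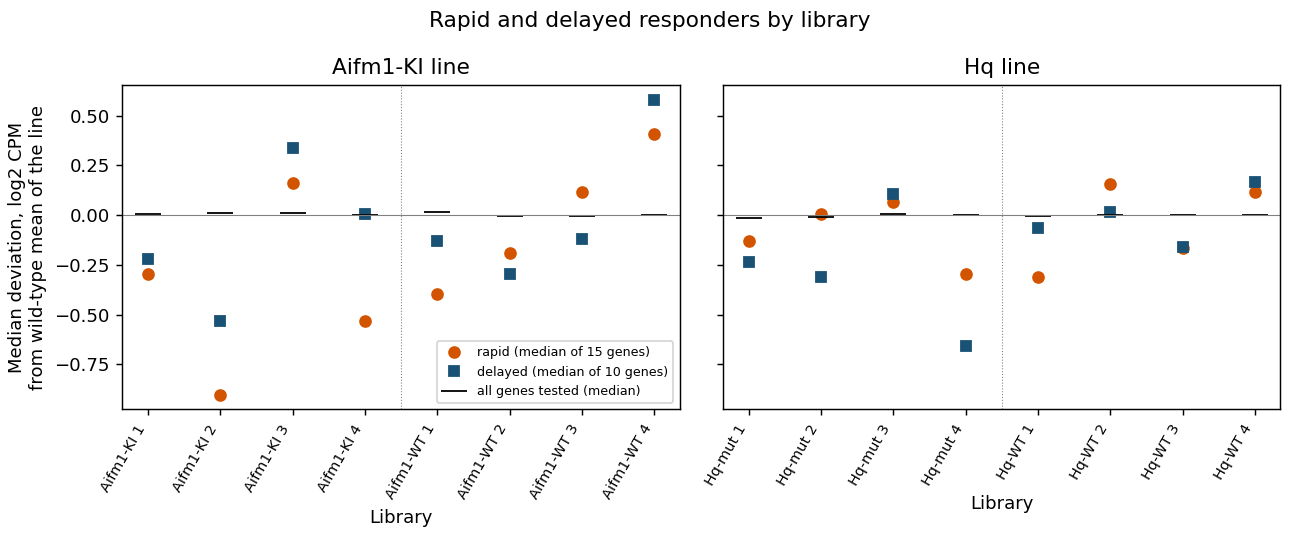
Median deviation of log2 CPM from the wild-type mean of the line (vertical axis) for 15 rapid responders (circles), 10 delayed responders (squares) and all genes tested (dashes) in each library. The class medians run from -0.90 in Aifm1-KI 2 to 0.58 in Aifm1-WT 4, while the dashes stay between -0.013 and 0.016.

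Setting Hq-mut against Hq-WT tests for an effect of the Harlequin allele, which lowers Aifm1 itself. No immediate early gene was called (0 of 33; edgeR called 3 of 17969 genes, 0.0167%). Of the 33, 29 had a log2 fold change below 0, beside 46.9% of all genes, with a median of -0.13 over the 33 and 0.011 over all genes. All 10 delayed responders lay below 0 (median -0.18), as did 12 of 15 rapid responders (median -0.09) and 7 of 8 others (median -0.05). One member was lower at an unadjusted p under 0.05 (1.19% of all genes). DESeq2 called 0 members, with 0 under that p in either direction beside 479 genes. These fits, which gave the SE values of this line, did not pair libraries by number, and paired values follow below. The groups overlapped for every member, while 0.974% of all genes were lower and 0.707% higher without overlap.

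Among the delayed responders, Nr4a2 (ENSMUSG00000026826, GRCm38 chr2:57106830-57124003, minus strand, protein-coding) was at 35.8, 36.6, 64.1 and 20.5 CPM in Hq-mut 1 to 4, against 142, 51.5, 66.7 and 36.8 CPM in Hq-WT 1 to 4. The log2 fold change was -0.92 (SE 0.42, adjusted p = 1.0 by edgeR), and leaving out 1 library moved it between -1.24 without Hq-mut 3 and -0.397 without Hq-WT 1. Hq-WT 1 was far above every other library of the line and Hq-mut 4 was the lowest. Bdnf (ENSMUSG00000048482, GRCm38 chr2:109674700-109727007, plus strand, protein-coding), the brain-derived neurotrophic factor, was at 64.9, 64.0, 65.1 and 44.2 CPM in Hq-mut 1 to 4, against 70.0, 83.3, 63.8 and 84.5 CPM in Hq-WT 1 to 4. The log2 fold change was -0.34 (SE 0.15, adjusted p = 1.0 by edgeR), and 3 mutant libraries lay within 64.0 to 65.1 CPM, just above the lowest wild type. Inhba, a subunit of activin, was at 48.8, 39.3, 81.8 and 45.6 CPM in Hq-mut 1 to 4, against 59.4, 61.4, 73.3 and 87.1 CPM in Hq-WT 1 to 4, a log2 fold change of -0.39 (SE 0.22). For Inhba, Hq-mut 1, 2 and 4 lay below every wild type and Hq-mut 3 above 3 of them. Homer1 was at 841, 482, 828 and 577 CPM in Hq-mut 1 to 4, against 782, 750, 608 and 896 CPM in Hq-WT 1 to 4, a log2 fold change of -0.16 (SE 0.19). Nptx2 was at 82.7, 132, 72.7 and 81.2 CPM in Hq-mut 1 to 4, against 94.0, 127, 60.2 and 135 CPM in Hq-WT 1 to 4, a log2 fold change of -0.17 (SE 0.26). For Homer1 and Nptx2 mutant and wild-type libraries were interleaved.

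Rapid responders had a median nearer 0. Fos was at 45.9, 54.4, 60.9 and 40.4 CPM in Hq-mut 1 to 4, against 46.4, 64.8, 49.6 and 76.1 CPM in Hq-WT 1 to 4, a log2 fold change of -0.23 (SE 0.18). Fosb was at 44.8, 46.5, 72.5 and 22.1 CPM in Hq-mut 1 to 4, against 59.2, 56.4, 47.6 and 63.5 CPM in Hq-WT 1 to 4, a log2 fold change of -0.29 (SE 0.28). Hq-mut 3 was above every wild type for Fosb and Hq-mut 4 below every one. Junb was at 74.7, 89.8, 78.9 and 68.1 CPM in Hq-mut 1 to 4, against 66.8, 94.5, 71.8 and 92.3 CPM in Hq-WT 1 to 4, a log2 fold change of -0.06 (SE 0.14). Egr1 was at 494, 510, 582 and 388 CPM in Hq-mut 1 to 4, against 421, 526, 413 and 503 CPM in Hq-WT 1 to 4, a log2 fold change of 0.08 (SE 0.14). For Egr1, Hq-mut 3 was the highest and Hq-mut 4 the lowest of the 8 libraries. Egr2 was at 23.3, 16.3, 28.9 and 11 CPM in Hq-mut 1 to 4, against 17.1, 25.9, 21.0 and 53.9 CPM in Hq-WT 1 to 4, a log2 fold change of -0.58 (SE 0.38). Egr4 was at 52.4, 71.1, 61.8 and 34.2 CPM in Hq-mut 1 to 4, against 47.2, 47.6, 41.9 and 70.0 CPM in Hq-WT 1 to 4, a log2 fold change of 0.09 (SE 0.23). Hq-WT 4 was the highest library of the line for Egr2, and Hq-mut 4 was the lowest for Egr2 and Egr4. Leaving out 1 library moved the log2 fold change of Egr2 between -0.791 without Hq-mut 3 and -0.106 without Hq-WT 4, and that of Fosb between -0.563 without Hq-mut 3 and -0.056 without Hq-mut 4. Arc was at 434, 518, 634 and 410 CPM in Hq-mut 1 to 4, against 360, 576, 619 and 552 CPM in Hq-WT 1 to 4, a log2 fold change of -0.08 (SE 0.19). Npas4 was at 35.6, 36.4, 40.2 and 28.2 CPM in Hq-mut 1 to 4, against 28.8, 38.1, 43.8 and 45.3 CPM in Hq-WT 1 to 4, a log2 fold change of -0.15 (SE 0.16). Mutant and wild-type libraries were interleaved for both. Nr4a1 was at 136, 153, 154 and 135 CPM in Hq-mut 1 to 4, against 115, 174, 157 and 157 CPM in Hq-WT 1 to 4, a log2 fold change of -0.06 (SE 0.13). Klf4 was at 8.93, 9.50, 13.5 and 6.05 CPM in Hq-mut 1 to 4, against 8.48, 8.78, 11.9 and 6.26 CPM in Hq-WT 1 to 4, a log2 fold change of 0.11 (SE 0.26). The groups overlapped for Klf4 in this line.

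Groups overlapped for the feedback regulators as well. Dusp1 was at 38.5, 53.3, 42.2 and 46.1 CPM in Hq-mut 1 to 4, against 38.8, 62.4, 45.8 and 48.4 CPM in Hq-WT 1 to 4, a log2 fold change of -0.12 (SE 0.16). Btg2, an inhibitor of cell proliferation, was at 13.7, 16.7, 16.5 and 22.1 CPM in Hq-mut 1 to 4, against 17.1, 25.6, 22.3 and 23.4 CPM in Hq-WT 1 to 4, a log2 fold change of -0.36 (SE 0.18). For Btg2, Hq-mut 1 to 3 lay below every wild type and Hq-mut 4 within their range. Ier2 was at 8.51, 16.1, 9.40 and 10.7 CPM in Hq-mut 1 to 4, against 8.10, 14.2, 13.6 and 11.7 CPM in Hq-WT 1 to 4, a log2 fold change of -0.09 (SE 0.24). Ier3 was at 9.19, 12.2, 9.76 and 7.06 CPM in Hq-mut 1 to 4, against 9.68, 9.94, 8.47 and 10.2 CPM in Hq-WT 1 to 4, a log2 fold change of -0.0049 (SE 0.18). Both had their highest library in Hq-mut 2. Gadd45b was at 15.7, 23.6, 16.7 and 9.14 CPM in Hq-mut 1 to 4, against 17.4, 20.6, 15.6 and 15.9 CPM in Hq-WT 1 to 4, a log2 fold change of -0.09 (SE 0.25). Rgs2 was at 52.1, 73.7, 60.5 and 47.6 CPM in Hq-mut 1 to 4, against 68.6, 83.3, 48.4 and 58.2 CPM in Hq-WT 1 to 4, a log2 fold change of -0.14 (SE 0.19). Hq-mut 4 was the lowest library of the line for Gadd45b and for Rgs2. The other 12 members had means from 9.75 CPM (Gadd45g) to 403 CPM (Egr3) in Hq-mut, against 11.1 and 423 CPM in Hq-WT for the same genes.

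Hq libraries with the same number deviated together, so each Hq-mut library was also set against the Hq-WT library of its number. With the pair as a block, the median log2 fold change was -0.14 over the 33, -0.09 over the rapid and -0.20 over the delayed responders, with 29 of 33 below 0 (48.4% of all genes), and no member was called. Lower at an unadjusted p under 0.05 were then 4 members (4.16% of all genes): Btg2 (-0.36, adjusted p = 0.528 by edgeR), Nr4a2 (-0.84, adjusted p = 0.553 by edgeR), Inhba (-0.43, adjusted p = 0.591 by edgeR) and Bdnf (-0.35, adjusted p = 0.619 by edgeR). Nr4a2, Btg2 and Dusp1 were lower in all 4 pairs, 3 of 33 members beside 8.82% of all genes, and none was higher in all 4 (8.98% of all genes). For Nr4a2 the log2 differences were -1.99, -0.49, -0.06 and -0.84 in pairs 1 to 4, and for Btg2 they were -0.31, -0.62, -0.43 and -0.08.

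The pairs did not show 1 direction. Members were lower in Hq-mut for 18 of 33 in pair 1, 24 in pair 2, 7 in pair 3 and 33 in pair 4, with median log2 differences of -0.02, -0.20, 0.20 and -0.53. Delayed responders had medians of -0.15, -0.37, 0.27 and -0.80 in pairs 1 to 4, and rapid responders 0.11, -0.15, 0.19 and -0.43, while all genes tested had medians of -0.003 to 0.012. In pair 4 the log2 differences ran from -0.05 (Klf4) to -2.28 (Egr2, at 11 CPM in Hq-mut 4 against 53.9 CPM in Hq-WT 4). Without pair 4 the median over the 33 was 0.02 with 13 below 0, beside 8610 of 17873 genes. That of the delayed responders was -0.09 with 6 of 10 below 0. Leaving out 1 library of the line at a time gave 22 below 0 without Hq-mut 4 (median -0.05, beside 8930 of 18210 genes). It gave 19 without Hq-WT 2 (median -0.02, beside 8363 of 18476 genes) and 26 to 29 without any other (medians -0.17 to -0.08).

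**Figure D5:**
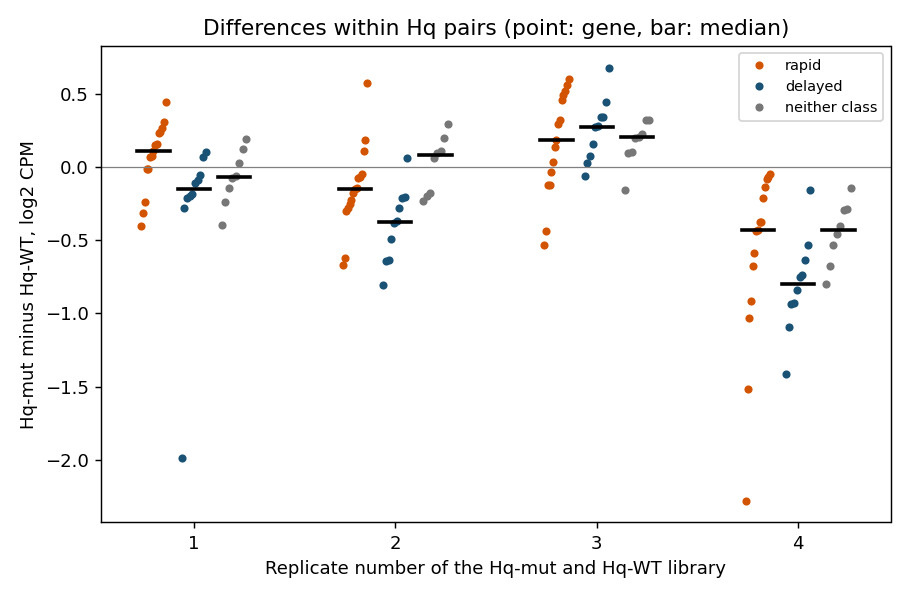
Hq-mut minus Hq-WT in log2 CPM (vertical axis) for each gene in the 4 pairs with the same replicate number (horizontal axis); bars are class medians. All 33 points of pair 4 lie below 0, and most of pair 3 lie above it.

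In pair 4 the marker sums were 319 CPM in Hq-mut 4 against 284 CPM in Hq-WT 4 for the 10 striatal markers, 9.89 against 11.1 CPM for the 8 choroid plexus markers, and 2660 against 2500 CPM for the 10 excitatory neuron markers. The 6 blood markers summed to 25.4 CPM in Hq-mut 4 against 40.5 CPM in Hq-WT 4. In other pairs, Hq-mut 3 had 846 CPM of striatal markers against 280 CPM in Hq-WT 3, and choroid plexus markers were at 366 CPM in Hq-mut 2 against 5420 CPM in Hq-WT 2. Oligodendrocyte markers were at 4850 CPM in Hq-mut 2 against 2050 CPM in Hq-WT 2, but at 5210 CPM in Hq-mut 3 against 6410 CPM in Hq-WT 3. In the unpaired fit all 10 striatal (median 1.09) and all 10 oligodendrocyte markers (median 0.24) had a log2 fold change above 0. All 8 choroid plexus markers lay below 0 (median -2.29). Without both libraries numbered 2 the median over the 33 was -0.13 with 28 below 0, beside 8989 of 18117 genes. Without both numbered 3 it was -0.25 with 31 below 0, beside 8654 of 18066 genes. The part of these cells in the values was not tested.

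The mutant effects were set against each other as the difference of the log2 fold changes, Aifm1-KI minus Hq-mut, over all 16 libraries. No member was called (0 of 33; edgeR called 2 of 19129 genes, 0.0105%), and none was under an unadjusted p of 0.05 (5.08% of all genes in either direction). DESeq2 called 0 members, with 1 under that p beside 1214 genes. A further fit took the replicate number as a block in both lines, although the numbers pair libraries in the Hq line only. In that fit 3 members were lower at an unadjusted p under 0.05 (5.15% of all genes): Klf4 (-0.62, adjusted p = 0.343 by edgeR), Ier5 (-0.90, adjusted p = 0.447 by edgeR) and Ier2 (-0.86, adjusted p = 0.455 by edgeR). The difference was negative for 11 of 15 rapid responders (median -0.28) and positive for 9 of 10 delayed responders (median 0.11), beside 9555 negative values among the 19129 genes. The smallest p belonged to Klf4, at -0.66 (SE 0.32, adjusted p = 0.946 by edgeR). Nr4a2 followed in the other direction at 1.05 (SE 0.57, adjusted p = 0.946 by edgeR). Without Aifm1-KI 2 and 4 the median was -0.03 for the rapid and 0.29 for the delayed responders, and without Aifm1-KI 3 it was -0.48 and -0.07. Without Aifm1-WT 4 it was -0.14 for the rapid and 0.35 for the delayed responders, and leaving out any other single library gave values between these extremes.

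Wild types of the lines were compared as well, Hq-WT over Aifm1-WT, where stock and processing cannot be told apart. No member was called by edgeR (0 of 33; 109 of 19129 genes were called, 0.57%), and 4 were higher at an unadjusted p under 0.05 (4.02% of all genes). Of the 33, 27 were above 0, beside 52.5% of all genes, with a median of 0.13 over the 33, 0.12 over the rapid and 0.26 over the delayed responders. The median over the 33 ran from 0.05 without Aifm1-WT 2 to 0.31 without Aifm1-WT 4. Without Aifm1-WT 1 it was -0.02 over the rapid responders with 20 of 33 above 0, where 9306 of 19568 genes lay below 0. Without Aifm1-WT 4 it was 0.26 over the rapid and 0.47 over the delayed responders. Bdnf was at 70.0, 83.3, 63.8 and 84.5 CPM in Hq-WT 1 to 4, against 40.0, 37.0, 35.8 and 64.3 CPM in Aifm1-WT 1 to 4. This was a log2 fold change of 0.77 (SE 0.19, adjusted p = 0.0834 by edgeR), with Aifm1-WT 4 alone reaching the lowest Hq-WT library. DESeq2 called Bdnf at an adjusted p of 0.0108, edgeR did so with no filter on low counts (adjusted p = 0.0247) and without Aifm1-WT 4 (adjusted p = 0.00542), and over all alternatives the adjusted p ran from 0.00542 to 0.317. Inhba was at 59.4, 61.4, 73.3 and 87.1 CPM in Hq-WT 1 to 4, against 32.0, 28.8, 39.7 and 57.0 CPM in Aifm1-WT 1 to 4, a log2 fold change of 0.84 (SE 0.30, adjusted p = 0.320 by edgeR), and was the only member without overlap (3.1% of all genes were higher without overlap). Homer1 had a log2 fold change of 0.61 (SE 0.25, adjusted p = 0.404 by edgeR) and Dusp6, an ERK phosphatase, 0.42 (SE 0.19, adjusted p = 0.487 by edgeR).

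The spread between libraries of 1 group was itself large for these genes. The median SD of log2 CPM within a group was 0.43 over the members in Aifm1-KI and 0.39 in Aifm1-WT, against 0.12 and 0.09 over 10805 genes at or above the level of the lowest member. In the Hq line it was 0.32 in Hq-mut and 0.28 in Hq-WT, against 0.22 and 0.17 over all those genes. The members that varied more than the median gene numbered 32 of 33 in Aifm1-KI, 32 in Aifm1-WT, 26 in Hq-mut and 27 in Hq-WT. Arc had the widest spread of all, an SD of 1.17 in Aifm1-KI, and Nr4a2 the widest in Hq-WT, at 0.83. The steadiest members were Rgs2 in Aifm1-KI (0.10), Jun in Aifm1-WT (0.08), Dusp6 in Hq-mut (0.04) and Fosl2, a FOS-related subunit, in Hq-WT (0.07).

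A second list held 25 other activity-induced genes, of which 24 passed the filter on low counts in each line. In Aifm1-KI 18 of the 24 had a log2 fold change below 0 (48.4% of all genes), with a median of -0.17. None was called by edgeR, and 4 were lower at an unadjusted p under 0.05 (4.34% of all genes). The smallest p was that of Klf10, a TGF-beta-inducible zinc finger factor. Klf10 averaged 36.6 ± 5.40 CPM in Aifm1-KI and 48.8 ± 6.69 CPM in Aifm1-WT (SD, n = 4 each), a log2 fold change of -0.42 (SE 0.12) with an edgeR adjusted p of 0.368. In Hq-mut 13 of 24 were below 0 (46.9% of all genes), with a median of -0.04. The smallest p was that of Sgk1, a serum- and glucocorticoid-induced kinase, at 89.9 ± 30.0 CPM in Hq-mut and 61.8 ± 7.18 CPM in Hq-WT (SD, n = 4 each). Its log2 fold change was 0.55 (SE 0.21, adjusted p = 1.0 by edgeR). With the pair as a block its unadjusted p by edgeR was 0.00813, where 1433 of 17969 genes were under 0.05. Other genes of this list were under 0.05 by edgeR in that fit too. They were Dusp4 (0.025), Maff (0.0353), Ccn1 (0.0364), Vgf (0.039), Amigo3 (0.0426), Pim1 (0.0431) and Zfp36 (0.048). Without the block, the log2 fold changes of Maff and Zfp36 were above 0 and those of Dusp4, Ccn1, Vgf, Amigo3 and Pim1 below it.

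A further list held 30 upstream kinases, channels and transcription factors. In Aifm1-KI 18 of 30 were above 0 (median 0.06), none was called by edgeR, and 6 were higher at an unadjusted p under 0.05 (7.05% of all genes). The smallest p was that of Rps6ka5, a kinase of CREB and histone H3, at 36.4 ± 3.22 CPM in Aifm1-KI and 29.3 ± 2.16 CPM in Aifm1-WT (SD, n = 4 each). Its log2 fold change was 0.32 (SE 0.08, adjusted p = 0.368 by edgeR). In Hq-mut 18 of 30 were above 0 (median 0.04), where 46.9% of all genes lay below 0. None was called by edgeR, and Map2k1, the ERK kinase, had the smallest p (adjusted p = 1.0 by edgeR). With the pair as a block the unadjusted p by edgeR was 0.015 for Map2k1 and 0.0449 for Camkk2, where 1433 of 17969 genes were under 0.05. Creb1 itself averaged 83.3 ± 6.49 CPM in Aifm1-KI against 81.2 ± 5.27 CPM in Aifm1-WT, and 79.2 ± 11.3 CPM in Hq-mut against 80.3 ± 4.80 CPM in Hq-WT (SD, n = 4 each).

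Reads of overlapping genes could enter some values. Junb, with 24877 counts over the 16 libraries, shares 173 exon bases with Prdx2 on the opposite strand, which had 35422 counts. Dusp1, with 14282 counts, shares 11 with Ergic1, which had 42007. Jun, Bdnf and Dusp5 overlap the antisense genes Junos, Gm45346 and AC137853.2, whose summed counts over the 16 libraries were 331, 31 and 114. The shared bases are 7.5% of the exon bases of Junb, 0.3% of Dusp1, 7.3% of Jun, 14.4% of Bdnf and 22.1% of Dusp5. As the strand setting is unknown, it cannot be told how reads in the shared bases were counted.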

How the data were processed

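RNA of cerebral cortex was sequenced in 16 libraries (TRIzol extraction, KAPA mRNA-seq kit, per the labels' protocols). Per the series' design text and the submitters' processing notes, the authors aligned 51-base single-end reads with STAR 2.6 to mm10 and made raw read counts per gene with HTSeq. Neither the strand setting nor the annotation release and HTSeq version is given in the sources used. The deposited counts carry Ensembl IDs, of which 55394 of 55573 were paired with a symbol from GENCODE on GRCm38.

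All tests were run here on these counts over the whole table with edgeR 4.0.16 (limma 3.58.1, R 4.3.3): filterByExpr, TMM factors and the quasi-likelihood F-test, with Benjamini-Hochberg adjustment over all genes tested and a call at an adjusted p under 0.05. Each mutant was fitted with its littermates; the other comparisons were fitted over all 16 libraries. The SE of a log2 fold change is its size over the square root of F. Log2 CPM had a prior count of 2 (alternative 0.5). Summaries used Python 3.11.15, pandas 2.3.3, numpy 2.4.6 and matplotlib 3.10.9. The fits were tested on simulated counts with the same spread setting for every gene and no pairing of libraries. That test does not cover the wider, shared variation of the members. Total counts of 10671580 to 32551594 put 3 counts, the limit of detection used here, at 0.0922 to 0.281 CPM.

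Members given by library are 14 listed by name plus those under an unadjusted p of 0.05 or without overlap in a mutant comparison; fold changes are also given for other members with the smallest p. The members, the lists and the split into rapid and delayed responders were chosen with earlier results of these data known. Libraries with the same number deviated together in the Hq line (correlations of 0.356 to 0.493), so the numbers were taken to pair them; in the Aifm1-KI line these were -0.02 to 0.082 and the numbers were not taken as pairs. No 2 libraries agreed within sampling noise. Alternatives were DESeq2 size factors, DESeq2 1.42.0, no filter on low counts, the replicate block, each library left out, and sets of libraries left out; that without both Hq libraries numbered 4 was chosen after seeing the data.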

Additional observations from a re-analysis of the deposited data

Results flagged for a closer look

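Of 132 sets of 4 libraries (33 members in 4 groups), 7 held a library whose gap to the nearest of the others was above Dixon's 95% critical value. Chance flags about 1 set in 20, so the number flagged was near that rate. The share of flagged sets over all genes was not computed, and the flags are given as descriptions only. Aifm1-WT 4 was flagged for 4 members. Fosb was at 71.8 CPM there, against 34.6 to 37.2 CPM in the other Aifm1-WT libraries. Egr4 was at 58.8 CPM, against 33.3 to 36.5 CPM in the others, and Bdnf at 64.3 CPM, against 35.8 to 40.0 CPM. Jun was low in the same library, at 45.7 CPM against 50.8 to 51.6 CPM in the others. Bdnf was low in Hq-mut 4, at 44.2 CPM against 64.0 to 65.1 CPM in the other Hq-mut libraries. Nptx2 was high in Hq-mut 2, at 132 CPM against 72.7 to 82.7 CPM in the others. Sik1, a kinase that restrains CREB coactivators, was low in Aifm1-KI 1, at 16.6 CPM against 21.3 to 22.2 CPM in the other Aifm1-KI libraries.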

How the results depend on the processing

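No immediate early gene was called in Aifm1-KI, in Hq-mut or in the difference of effects under any alternative run. In Aifm1-KI the genes called numbered 159 with DESeq2 and 0 to 46 when leaving out 1 library, the 46 without Aifm1-KI 3. In Hq-mut they numbered 1 without both libraries numbered 2, 1 without both numbered 3 and 1 without both numbered 4, and 1 to 2 when leaving out 1 library. In the difference they numbered 5 with DESeq2, 1 without Aifm1-KI 2 and 4, and 1 to 2 when leaving out 1 library. Between the wild types they numbered 374 with DESeq2, 279 with no filter and 32 to 197 when leaving out 1 library. Members called there were 1 with DESeq2, 1 with no filter and 0 to 1 when leaving out 1 library (Bdnf each time).

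Log2 fold changes of some members crossed 0. In Aifm1-KI without libraries 2 and 4, Npas4 was at 0.264, Homer1 at 0.243, Nptx2 at 0.0066 and Bdnf at -0.0066, and Bdnf was at -0.003 with DESeq2 size factors, -0.0031 with DESeq2 and -0.013 with no filter. In Hq-mut without both libraries numbered 4, Fos was at 0.001, Fosb 0.0012, Junb 0.06, Egr2 0.093, Arc 0.025, Npas4 0.02, Ier3 0.144, Homer1 0.0049, Nptx2 0.029 and Gadd45b 0.06. Without both numbered 3, Egr1 was at -0.061, Egr4 at -0.065 and Ier2 at 0.054, and without both numbered 2 Egr4 was at -0.103. Ier3 was at 0.0028 with DESeq2 and 0.0014 with no filter. The cause was not tested.

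Leaving out 1 library at a time, the Aifm1-KI values ran from -0.417 to 0.071 for Fosb, -0.329 to 0.022 for Egr4, -0.256 to 0.085 for Npas4, -0.074 to 0.336 for Nr4a2, -0.314 to 0.122 for Homer1, -0.112 to 0.235 for Bdnf and -0.245 to 0.191 for Nptx2. The Hq-mut values ran from -0.149 to 0.033 for Junb, -0.066 to 0.269 for Egr4, -0.226 to 0.0082 for Arc, -0.171 to 0.032 for Nr4a1, -0.216 to 0.039 for Dusp1 and -0.319 to 0.031 for Ier2. They ran from -0.149 to 0.116 for Ier3, -0.086 to 0.278 for Klf4, -0.331 to 0.106 for Gadd45b and -0.279 to 0.019 for Rgs2.

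The replicate block gave 3 genes called in Hq-mut and 0 in Aifm1-KI, where the numbers do not pair the libraries and 9 members were lower at an unadjusted p under 0.05 beside 860 of 18383 genes. It gave 2 genes called in the difference and changed no call of a member at an adjusted p under 0.05. Limits: 4 libraries a group, members that vary more between libraries than most genes, tissue markers that differ between libraries, and counts that join isoforms. The lowest count of any member was 53, and the effect of depth was not tested.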
